A study of Mus musculus with 8 samples.

Results

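The comparison described here set mouse embryonic stem cells that carry a DBA/2J segment of chromosome 13 on an otherwise C57BL/6J genome (B6-13D2) against C57BL/6J cells (B6). The assay was H3K27ac HiChIP, which joins DNA ends lying close together in the nucleus, keeps the joined fragments that carry acetylated histone H3 lysine 27, and counts read pairs that link a pair of sites. The deposited tables list 415681 loops between 30044 anchors, and 4913 of these loops lie inside a single anchor. Members were the 44706 loops with at least 5 counts in at least 2 of the 8 libraries, and the 21211 anchors whose summed loop counts reached at least 10 in at least 2 libraries. A loop's counts enter the sums of both its anchors, so anchors joined by a loop share read pairs and are not separate measures. Chromosome 13 from 55 to 75 Mb, taken here to stand for the exchanged segment, held 371 of these loops (of 3952 listed) and 210 of these anchors (of 322). The rest of chromosome 13 held 1082 tested loops and 706 tested anchors, and the other chromosomes 43253 and 20295. The positions of the markers that bound the segment were not used here, so the 20-Mb stretch may miss part of it or take in flanking DNA.

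Each of the 4 cell lines was sequenced as 2 technical replicates. B6 is the line B6 5-1 of strain C57BL/6J, and B6-13D2 is the line QJ 6-1 of the congenic strain B6.D2-(rs30079041-rs51756099)/Bakr. D2 is the line D2 5-5 of strain DBA/2J. D2-13B6 is the line XE 2-4, which carries the reciprocal exchange, a C57BL/6J segment on DBA/2J; its strain is given as D2.B6-(rs29224292-rs13469455)/Bakr with the samples and with rs51756099 as the second marker in the series description. All lines grew in serum medium with LIF, the MEK inhibitor PD0325901 and the GSK3 inhibitor CHIR99021. Since each genotype is a single line, a difference between genotypes and a difference between lines cannot be told apart, and each p-value measures only the spread between technical libraries.

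H3K27ac marks active promoters and enhancers, and loops between acetylated sites often join a promoter with distal elements or with other promoters. Chromosome 13 of the mouse holds large clusters of KRAB zinc finger genes, whose proteins bind DNA, often in transposable elements, and recruit Trim28 together with enzymes that deposit heterochromatin. The same chromosome holds the main cluster of replication-dependent histone genes, which are expressed in dividing cells such as embryonic stem cells.

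The loop tables summed to between 737955 and 1357176 counts in the B6 and B6-13D2 libraries, B6 replicate 2 being the lowest. The tested loops took 79.0% to 84.3% of each library's counts, with a median of 5 to 9 counts per loop and 27 to 43 per anchor. Levels are given as CPM, counts per 1000000 of the library's summed counts over tested loops or over tested anchors, after scaling by trimmed means. All markers of naive pluripotency that were listed lay at tested anchors: Pou5f1, the core pluripotency factor, measured 482 and 367 CPM in B6 and 440.4 and 532 in B6-13D2, and Nanog measured 499 and 420.0 in B6 and 478 and 495 in B6-13D2. D2-13B6 placed 13.9% and 14.0% of its counts on chromosome 11, against 10.0% to 10.6% in the other 6 libraries, and this line enters every comparison with the reciprocal pair below. Counts of single loops are printed as deposited, not scaled to depth, while every fold change is.

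Contacts within the D2 segment were mostly lower in B6-13D2 than in B6. Among the 210 tested anchors of the stretch, 28 fell and 1 rose at a false discovery rate (FDR) of 0.05 in edgeR's quasi-likelihood test, and the median log2 fold change over all 210 was -0.26, with 142 values below 0. Over all tested anchors 5.27% were called, 3.5% higher and 1.77% lower, with a median of 0.00; in the stretch 13.8% were called and 13.3% were lower. Of its 371 tested loops 22 fell and 4 rose, 7.01% in all with 5.93% lower and a median of -0.31, whereas over all tested loops 0.859% were called, 0.537% higher and 0.322% lower. On the rest of chromosome 13 the directions were the other way: 32 anchors rose and 7 fell, and 21 loops rose and none fell (50 loops lower at an unadjusted p under 0.05 in edgeR's test, none by DESeq2). Outside chromosome 13, 710 anchors rose and 340 fell, and 215 loops rose and 122 fell, with a median of 0.00 for both.

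The same lower share was visible without a test in the raw counts. The stretch held 27.2% and 25.6% of all chromosome 13 counts in the B6 libraries, 21.5% and 22.2% in B6-13D2, 21.5% and 22.0% in D2, and 24.5% and 23.7% in D2-13B6. All 4 libraries with the B6 segment lay above all 4 libraries with the D2 segment, and this order stayed when counts between 20 and 25 Mb, which hold histone genes, were taken out of the chromosome's total. The order also rests on that total, which differed between lines. The rest of chromosome 13 took 2.26% and 2.52% of all counts in B6 and 2.60% and 2.46% in B6-13D2. It took 2.67% and 2.67% in D2, and 2.11% and 2.16%, the lowest values, in D2-13B6. Of all counts in a library the stretch took 0.843% and 0.870% in B6, 0.713% and 0.702% in B6-13D2, 0.731% and 0.752% in D2, and 0.684% and 0.668% in D2-13B6. On that measure D2-13B6 lay below the lines with the D2 segment. The part of its raised chromosome 11 share in this was not tested.

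The genome build named in the submitters' processing notes is mm10, a C57BL/6J sequence. Reads lost to sequence differences from it and fewer acetylated contacts cannot be told apart in a fall within the segment. The number of calls depended on single libraries. Without B6 replicate 1 the calls went to 113 loops and 631 anchors, without B6-13D2 replicate 1 to 136 and 595, and without B6-13D2 replicate 2 to 192 loops; in the stretch these 3 omissions left 14, 14 and 16 loops, and over all single omissions 22 to 30 anchors were called there. Scaling by library totals alone turned the balance of calls to 416 higher and 590 lower anchors and to 128 higher and 182 lower loops, with the median of all anchors at -0.10. Removing a trend on abundance gave 445 higher and 402 lower anchors, and 99 higher and 162 lower loops. DESeq2 called 334 higher and 74 lower anchors. In the 55 to 75 Mb stretch 31 anchors fell and 0 rose under library totals, 29 and 0 with the trend removed, and 14 and 1 by DESeq2.

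**Figure D1:**
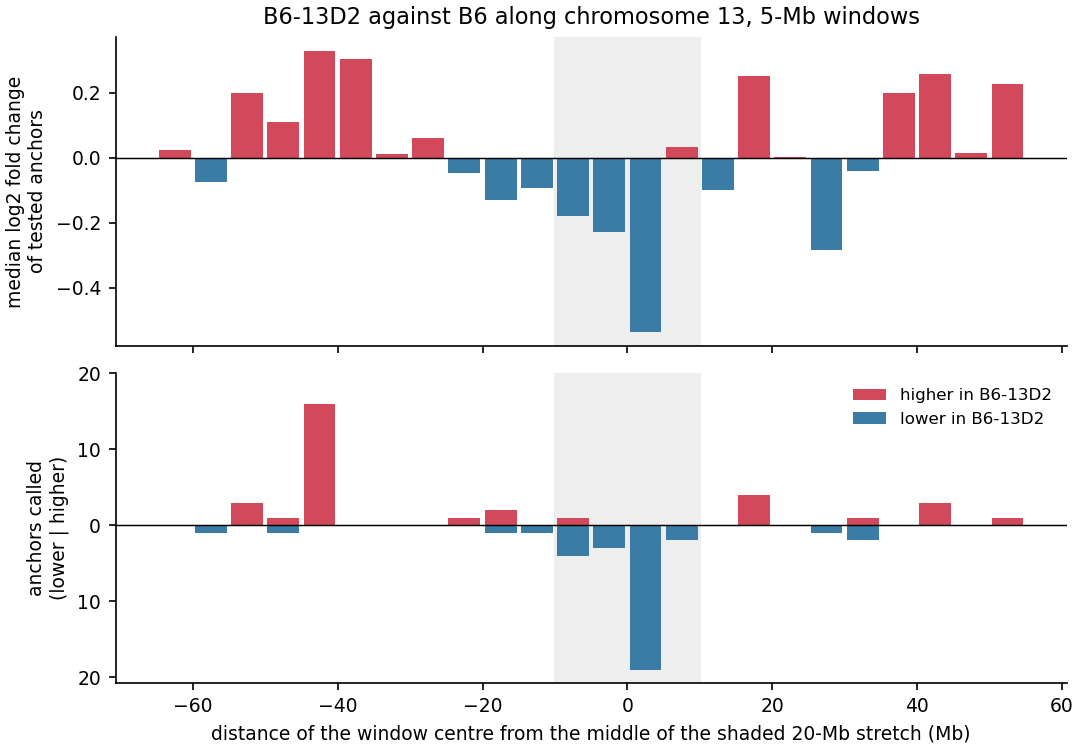
Median log2 fold change of tested anchors (B6-13D2 over B6) and number of called anchors in 5-Mb windows of chromosome 13, plotted by distance in Mb from the middle of the shaded 20-Mb stretch. The window at 65 to 70 Mb holds 19 of the 28 anchors that fell in the stretch, and the window at 20 to 25 Mb holds 16 anchors that rose.

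Most of the falls lay between 65 and 70 Mb, as the plot of 5-Mb windows along chromosome 13 shows. From 65 to 70 Mb, 19 of 52 tested anchors fell (36.5%) with a median log2 fold change of -0.54. From 55 to 60 Mb, 4 of 51 fell and 1 rose (median -0.18), from 60 to 65 Mb 3 of 72 fell (median -0.23), and from 70 to 75 Mb 2 of 35 fell (median 0.03). Within the densest window the fallen anchors lay on a run of zinc finger genes, at chr13:67230001-67915000 (mm10), and on the 2 Mb before it. This run, called the zinc finger block below, held 25 tested anchors; 14 fell, none rose, 24 had a value below 0 and the median log2 fold change was -0.64; 1 was higher at an unadjusted p under 0.05 in edgeR's test, and none by DESeq2. Of all tested anchors 1.77% fell, and 13.3% of those in the stretch, which include the block; it was outlined with these falls in view. Under library totals 15 fell, with the trend removed 15, and by DESeq2 8, with 24 values below 0 each time.

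The promoters of the block's genes are printed to show the regulatory sequence behind these anchors and how alike the genes are. Each is 300 bases from RefSeq on GRCm38.p6 (mm10), 250 before and 50 after the gene's start, 5′ to 3′ on the gene's strand. Capitals mark a pair of 10-base runs that a script found to recur among the block's promoters, ACTTGTGGGA and GAAATGTAGT, searched on both strands; the runs can overlap by up to 2 bases. Shown first are promoters whose anchor fell, those of Zfp874a at chr13:67451575-67451874 (minus strand), Zfp748 at chr13:67553103-67553402 (minus strand), Zfp738 at chr13:67683463-67683762 (minus strand) and Zfp273 at chr13:67813566-67813865 (plus strand). The last pair, Zfp874b at chr13:67484204-67484503 (minus strand) and Zfp58 at chr13:67500473-67500772 (minus strand), lie at anchors that did not pass the test.
Zfp874a: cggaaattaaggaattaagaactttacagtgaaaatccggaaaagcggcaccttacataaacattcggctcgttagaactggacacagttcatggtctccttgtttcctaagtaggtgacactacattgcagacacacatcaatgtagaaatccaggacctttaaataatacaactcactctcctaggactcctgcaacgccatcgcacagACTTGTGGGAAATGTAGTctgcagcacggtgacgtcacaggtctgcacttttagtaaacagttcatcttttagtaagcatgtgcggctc
Zfp748: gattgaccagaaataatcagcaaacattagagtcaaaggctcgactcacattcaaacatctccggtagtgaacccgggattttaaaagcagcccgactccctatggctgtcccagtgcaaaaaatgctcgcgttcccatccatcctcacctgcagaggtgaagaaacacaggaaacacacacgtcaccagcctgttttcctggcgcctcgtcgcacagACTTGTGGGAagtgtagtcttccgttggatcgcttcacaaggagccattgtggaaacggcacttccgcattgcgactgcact
Zfp738: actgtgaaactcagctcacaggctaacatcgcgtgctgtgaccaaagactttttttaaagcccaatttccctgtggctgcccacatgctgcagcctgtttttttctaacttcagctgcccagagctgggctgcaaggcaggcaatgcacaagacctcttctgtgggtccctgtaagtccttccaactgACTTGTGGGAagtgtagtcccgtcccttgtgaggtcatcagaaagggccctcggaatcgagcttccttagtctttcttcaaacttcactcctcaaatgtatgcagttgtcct
Zfp273: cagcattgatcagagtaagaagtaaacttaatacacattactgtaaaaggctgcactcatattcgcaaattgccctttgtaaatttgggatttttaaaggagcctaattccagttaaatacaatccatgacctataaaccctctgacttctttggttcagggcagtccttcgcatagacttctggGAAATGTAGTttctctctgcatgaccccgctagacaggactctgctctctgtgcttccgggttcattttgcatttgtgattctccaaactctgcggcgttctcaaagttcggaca
Zfp874b: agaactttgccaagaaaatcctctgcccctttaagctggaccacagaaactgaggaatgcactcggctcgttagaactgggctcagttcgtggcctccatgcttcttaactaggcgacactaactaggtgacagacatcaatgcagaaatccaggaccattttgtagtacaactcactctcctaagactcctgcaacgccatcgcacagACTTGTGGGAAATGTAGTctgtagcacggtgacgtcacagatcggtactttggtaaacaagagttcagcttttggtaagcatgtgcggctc
Zfp58: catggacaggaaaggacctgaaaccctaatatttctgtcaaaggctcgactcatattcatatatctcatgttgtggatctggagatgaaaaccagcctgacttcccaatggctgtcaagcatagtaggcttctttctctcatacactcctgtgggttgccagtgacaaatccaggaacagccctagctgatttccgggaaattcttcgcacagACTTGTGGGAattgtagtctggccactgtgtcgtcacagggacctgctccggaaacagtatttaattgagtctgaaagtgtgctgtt

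At least 1 of these runs occurred in 13 of the 18 promoters matched to zinc finger genes of the block, 2 of them of Gm10037, against 214 of 32851 promoters in the whole table (0.651%). The first run was in 9 of the 18 and in 0.0974% of all promoters, and the second in 9 of the 18 and in 0.572%. A run was present in 6 of the 8 promoters whose anchor fell and in 5 of the 8 whose anchor did not pass the test. Promoters of Zfp493, Zfp87 and Zfp729b were not analysed here. Both matched promoters of the block without a tested anchor held one. The runs were picked from these promoters after reading them, and a match is a description of sequence, not a binding site.

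The zinc finger genes of the stretch shared the block's direction only in part. Of its 33 zinc finger genes, 31 lay at tested anchors. With each gene counted once, at its anchor of highest mean CPM, these were 30 anchors, of which 8 fell and none rose in edgeR's test (1 at an unadjusted p under 0.05, none by DESeq2), with a median log2 fold change of -0.26. These 8 anchors stood for 9 genes; anchors that hold a further start of a gene, such as that of Zfp729a at chr13:67625001, are not in this count. Outside chromosome 13, zinc finger genes lay at 300 tested anchors, of which 12 rose and 4 fell with a median of 0.04, near the 3.5% higher and 1.77% lower of all tested anchors; under library totals 6 rose and 6 fell with a median of -0.06, and with the trend removed 7 rose and 5 fell with a median of -0.03. How reads that match several members of this gene family were placed is not given in the sources used here.

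Zfp493 had the firmest call in the block. Its anchor at chr13:67790001-67805000 measured 187 and 199 CPM in B6, 84.3 and 82.7 in B6-13D2, 87.4 and 76.7 in D2, and 127 and 120.4 in D2-13B6. The B6 pair lay above all other libraries, and D2-13B6 lay between B6 and the lines with the D2 segment (log2 fold change -1.21 ± 0.13 (SE), FDR 5.52e-11). The fall was smaller from D2-13B6 to D2, at -0.59 (FDR 0.00328), and the difference between these 2 contrasts was -0.62 (FDR 0.0449). A further Zfp493 anchor, at chr13:67775001-67785000, fell too (log2 fold change -0.64 ± 0.15 (SE), FDR 0.00485). It measured 103 and 87.7 CPM in B6, 68.6 and 56.1 in B6-13D2, 59.6 and 68.4 in D2, and 58.4 and 61.8 in D2-13B6. That anchor was not called between D2-13B6 and D2, at 0.09 (FDR 0.852).

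The neighbouring anchor of Zfp273 at chr13:67810001-67820000 measured 103 and 119 CPM in B6, 51.6 and 56.1 in B6-13D2, 59.0 and 50.9 in D2, and 70.6 and 63.6 in D2-13B6, again with B6 on top and no overlap between B6 and B6-13D2 (log2 fold change -1.03 ± 0.15 (SE), FDR 1.55e-06). At the anchor of Zfp459 and Zfp874a, chr13:67410001-67440000, the levels were 210.4 and 226 CPM in B6, 139.7 and 141 in B6-13D2, 139 and 162 in D2, and 214 and 234 in D2-13B6. Here the lines split by the segment they carry, with all 4 libraries of the B6 segment above all 4 of the D2 segment (log2 fold change -0.64 ± 0.12 (SE), FDR 0.00028).

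The same split held at Zfp748, chr13:67545001-67555000, with 68.5 and 67.8 CPM in B6, 35.2 and 43.0 in B6-13D2, 40.0 and 29.6 in D2, and 62.5 and 50.1 in D2-13B6 (log2 fold change -0.78 ± 0.18 (SE), FDR 0.00281). At the shared anchor of Zfp729b and Zfp729a, chr13:67605001-67620000, the libraries measured 78.4 and 83.1 CPM in B6, 45.3 and 42.1 in B6-13D2, 45.4 and 38.7 in D2, and 74.2 and 72.6 in D2-13B6 (log2 fold change -0.89 ± 0.17 (SE), FDR 0.000166), once more without overlap between carriers of the B6 and D2 segments. The other fallen anchors of the block, among them those of Zfp87, Zfp738, Zfp85 and Gm10037, lay between -1.21 and -0.54 on the log2 scale. Not all of them split by the segment. At Zfp85 the levels were 142 and 169 CPM in B6, 109 and 105 in B6-13D2, 108 and 135 in D2, and 104 and 110 in D2-13B6. Carriers of the B6 and D2 segments also overlapped at Zfp87 and Zfp738, but not at Gm10037. Zfp458, Zfp953, Zfp429, Zfp874b, Zfp58, Zfp65 and Zfp456 did not pass the test, with Zfp456 the member of the block farthest above 0 at 0.63 (FDR 0.11).

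As a share of all anchor sums the block took 0.181% and 0.203% in B6, 0.119% and 0.113% in B6-13D2, 0.132% and 0.134% in D2, and 0.140% and 0.136% in D2-13B6. B6 was apart from the other 3 lines on this measure, and D2-13B6, which carries the B6 segment, lay closer to the lines with the D2 segment. In bins of 5 kb the block was read from the full loop tables, each pair counted at both of its ends, as counts per 1000000 of the library's deposited total with no further scaling. Of its 59 bins with counts, 45 had both B6-13D2 libraries below both B6 libraries and 4 had them above on this measure. The share over bins outside the block was not computed, and the block was outlined with its falls in view. Library totals alone put the median log2 fold change of all tested anchors at -0.10.

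**Figure D2:**
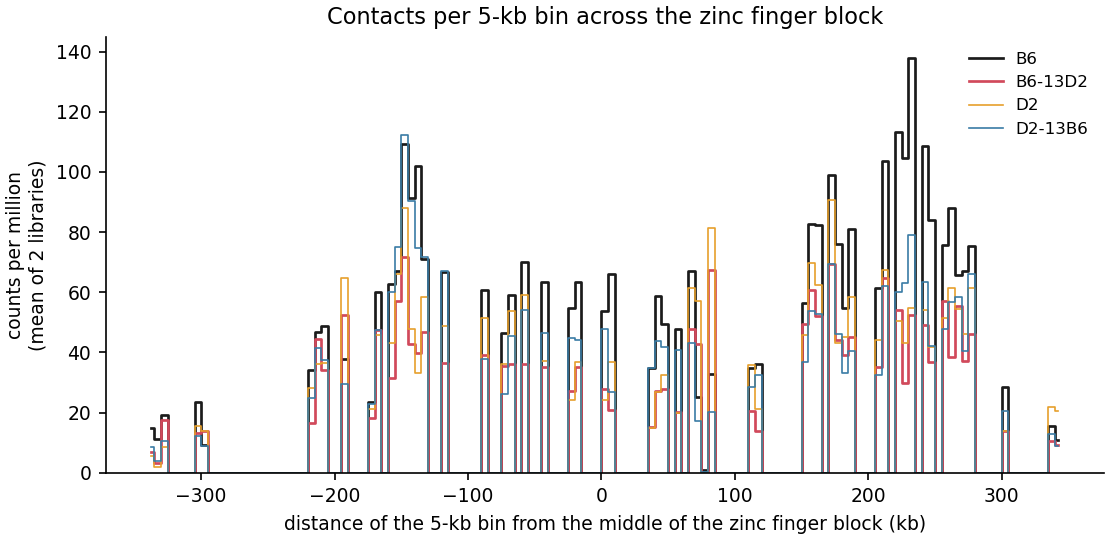
Mean counts per 1000000 of the deposited library total (unscaled) over the 2 libraries of each line, in 5-kb bins of the zinc finger block, plotted by distance in kb from its middle. B6 is highest in most bins, while in the bin at chr13:67650001-67655000 the single B6-13D2 and D2 libraries measure 57.5 to 84.6 against 19.4 to 33.9 in B6 and D2-13B6.

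A few sites in the block went against its direction, and they followed the segment. The loop inside the anchor at chr13:67635001-67655000, which has starts of Gm49345, Zfp729a and Gm48095 in it or within 5 kb, had 9 and 3 counts in B6, 57 and 56 in B6-13D2, 47 and 49 in D2, and 6 and 9 in D2-13B6. Lines with the D2 segment were high and lines with the B6 segment low (log2 fold change 2.79 ± 0.37 (SE), FDR 1.65e-10; D2 against D2-13B6 3.42 (FDR 3.92e-19)). On the unscaled measure used for bins, that at chr13:67650001-67655000 had 31.5 and 33.9 in B6, 77.4 and 57.5 in B6-13D2, 78.2 and 84.6 in D2, and 19.4 and 21.05 in D2-13B6. In the bin at chr13:67635001-67640000 the B6 libraries were the highest, at 69.3 and 65.04 against 46.8 and 48.6 in B6-13D2, and the summed anchor did not pass the test (log2 fold change -0.04).

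The loop from the Zfp456 anchor to that of Zfp459 and Zfp874a likewise had 1 and 5 counts in B6, 30 and 32 in B6-13D2, 19 and 28 in D2, and 8 and 9 in D2-13B6. It was low in both lines with the B6 segment (log2 fold change 2.89 ± 0.49 (SE), FDR 6.87e-06). By contrast the loop from Zfp493 to Zfp273 had 63 and 53 counts in B6, 22 and 34 in B6-13D2, 20 and 14 in D2, and 58 and 53 in D2-13B6, and the D2 and B6-13D2 libraries lay below the others (log2 fold change -1.49 ± 0.25 (SE), FDR 6.84e-06).

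Fancc, which encodes a subunit of the Fanconi anaemia DNA repair complex, had the smallest FDR among anchors of the stretch that fell outside the block. Its anchor at chr13:63345001-63360000 measured 77.2 and 89.2 CPM in B6, 28.9 and 22.9 in B6-13D2, 40.0 and 37.2 in D2, and 61.1 and 57.7 in D2-13B6. The lines ranked B6, D2-13B6, D2 and B6-13D2 with no overlap between neighbours (log2 fold change -1.69 ± 0.19 (SE), FDR 5.52e-11). From D2-13B6 to D2 the change was -0.62 (FDR 0.0234), and the contrasts differed by -1.07 (FDR 0.00689). The loop inside this anchor fell too, with 18 and 13 counts in B6, 2 and 3 in B6-13D2, 2 and 3 in D2, and 23 and 17 in D2-13B6 (log2 fold change -3.00 ± 0.57 (SE), FDR 0.000123). A second loop of this anchor, to chr13:63425001-63440000 in Fancc, was low in B6-13D2 alone, with 13 and 15 counts in B6, 2 and 5 in B6-13D2, 11 and 9 in D2, and 15 and 26 in D2-13B6 (log2 fold change -2.39 ± 0.54 (SE), FDR 0.00353). There D2 exceeded B6-13D2 by 2.00 on the log2 scale (FDR 0.0241).

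Golm1, which encodes a membrane protein of the Golgi, had 2 fallen anchors. The one in its body at chr13:59645001-59670000 measured 162 and 140.2 CPM in B6, 64.8 and 79.4 in B6-13D2, 86.1 and 75.2 in D2, and 108 and 109.6 in D2-13B6 (log2 fold change -1.06 ± 0.14 (SE), FDR 5.2e-08). The one at chr13:59675001-59685000 measured 62.3 and 53.4 CPM in B6, 23.9 and 24.8 in B6-13D2, 31.2 and 34.2 in D2, and 46.3 and 41.0 in D2-13B6 (log2 fold change -1.25 ± 0.20 (SE), FDR 5.57e-06). The loop joining them had 79 and 56 counts in B6, 19 and 34 in B6-13D2, 28 and 27 in D2, and 70 and 60 in D2-13B6 (log2 fold change -1.78 ± 0.25 (SE), FDR 1.64e-09). Its counts enter both anchor sums. In the second anchor they are most of the 100 and 70 counts in B6, and 19 and 34 of the 38 and 53 in B6-13D2. The 2 anchors and the loop are therefore not separate results. In CPM, B6 was highest at both anchors and in the loop, D2-13B6 next, and the lines with the D2 segment lowest.

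Nlrp4f, a member of the Nlrp family known from oocytes and early embryos, fell at its anchor chr13:65200001-65230000, which measured 219 and 198 CPM in B6, 94.998 and 87.8 in B6-13D2, 67.8 and 86.6 in D2, and 168 and 145 in D2-13B6. Carriers of the B6 and D2 segments did not overlap, and the change was of like size in both contrasts (log2 fold change -1.20 ± 0.13 (SE), FDR 6.03e-11; D2 against D2-13B6 -1.02 (FDR 9.09e-08)). The loop from this anchor to Gm36445 at chr13:65235001-65245000 had 111 and 75 counts in B6, 50 and 55 in B6-13D2, 23 and 39 in D2, and 116 and 95 in D2-13B6 (log2 fold change -1.25 ± 0.20 (SE), FDR 1.28e-06).

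The anchor at chr13:66540001-66605000, which holds the start of the miRNA gene Gm27501 and the pseudogene Gm48360, showed a similar division at a larger size. Its sum measured 45.4 and 47.3 CPM in B6, 10.1 and 11.2 in B6-13D2, 12.2 and 16.7 in D2, and 49.9 and 49.6 in D2-13B6 (log2 fold change -2.10 ± 0.25 (SE), FDR 6.19e-10). Its inside loop had no count in either B6-13D2 library, against 48 and 19 in B6, so that loop was at least 30.2-fold lower, with 3 counts over both B6-13D2 libraries together as the floor.

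Towards the far end of the stretch a pair of anchors at chr13:70100001-70110000, in the body of Gm3772, and chr13:70120001-70130000 fell as well. The first measured 17.4 and 23.6 CPM in B6, 3.77 and 5.14 in B6-13D2, 4.74 and 3.8 in D2, and 7.19 and 5.86 in D2-13B6 (log2 fold change -2.14 ± 0.38 (SE), FDR 5.67e-05), and the second 26.1 and 29.7 CPM in B6, 5.03 and 4.21 in B6-13D2, 8.13 and 3.04 in D2, and 8.54 and 6.76 in D2-13B6 (log2 fold change -2.59 ± 0.35 (SE), FDR 7.01e-08). Here B6 stood apart from the other 3 lines, D2-13B6 included. The loop between them had 20 and 23 counts in B6, 5 and 5 in B6-13D2, 6 and 4 in D2, and 11 and 12 in D2-13B6 (log2 fold change -2.51 ± 0.45 (SE), FDR 3.37e-05). Its counts enter the sums of both anchors.

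Hsd17b3, a steroid dehydrogenase gene, fell at chr13:64075001-64085000 with 27.4 and 27.4 CPM in B6, 11.3 and 13.6 in B6-13D2, 12.2 and 14.4 in D2, and 18.4 and 21.2 in D2-13B6 (log2 fold change -1.12 ± 0.27 (SE), FDR 0.00476). Its loop to the anchor at chr13:64030001 had 17 and 13 counts in B6, 2 and 5 in B6-13D2, 4 and 5 in D2, and 10 and 13 in D2-13B6 (log2 fold change -2.49 ± 0.53 (SE), FDR 0.00133). In CPM the B6 libraries were again the highest.

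Nsd1, which encodes a histone H3 lysine 36 methyltransferase, was the only anchor of the stretch that rose. At chr13:55175001-55220000 it measured 514 and 444 CPM in B6, 589 and 646 in B6-13D2, 497 and 591 in D2, and 572 and 639 in D2-13B6 (log2 fold change 0.37 ± 0.11 (SE), FDR 0.0278). The B6-13D2 libraries overlapped those of D2-13B6, and the call held in 9 of 19 alternatives. It was lost under library totals, where the log2 fold change was 0.27, with the trend removed (0.15), with inside loops left out (0.16), with the 4 libraries of B6 and B6-13D2 alone and under the replicate block (0.36, FDR 0.0727). It was also lost without B6 replicate 2, B6-13D2 replicate 2, D2 replicate 2 or either D2-13B6 replicate. The loop inside it rose with 286 and 168 counts in B6, 365 and 592 in B6-13D2, 249 and 283 in D2, and 496 and 563 in D2-13B6 (log2 fold change 0.64 ± 0.13 (SE), FDR 0.000387), and that call was lost without B6 replicate 2 or without B6-13D2 replicate 2. The fourth rising loop lay inside the anchor of Zfp367 and Habp4 at chr13:64150001-64165000, with 8 and 6 counts in B6, 24 and 33 in B6-13D2, 26 and 17 in D2, and 26 and 13 in D2-13B6 (log2 fold change 1.57 ± 0.41 (SE), FDR 0.022), and it was lost without any 1 of the 4 libraries and with no filter on low counts.

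**Figure D3:**
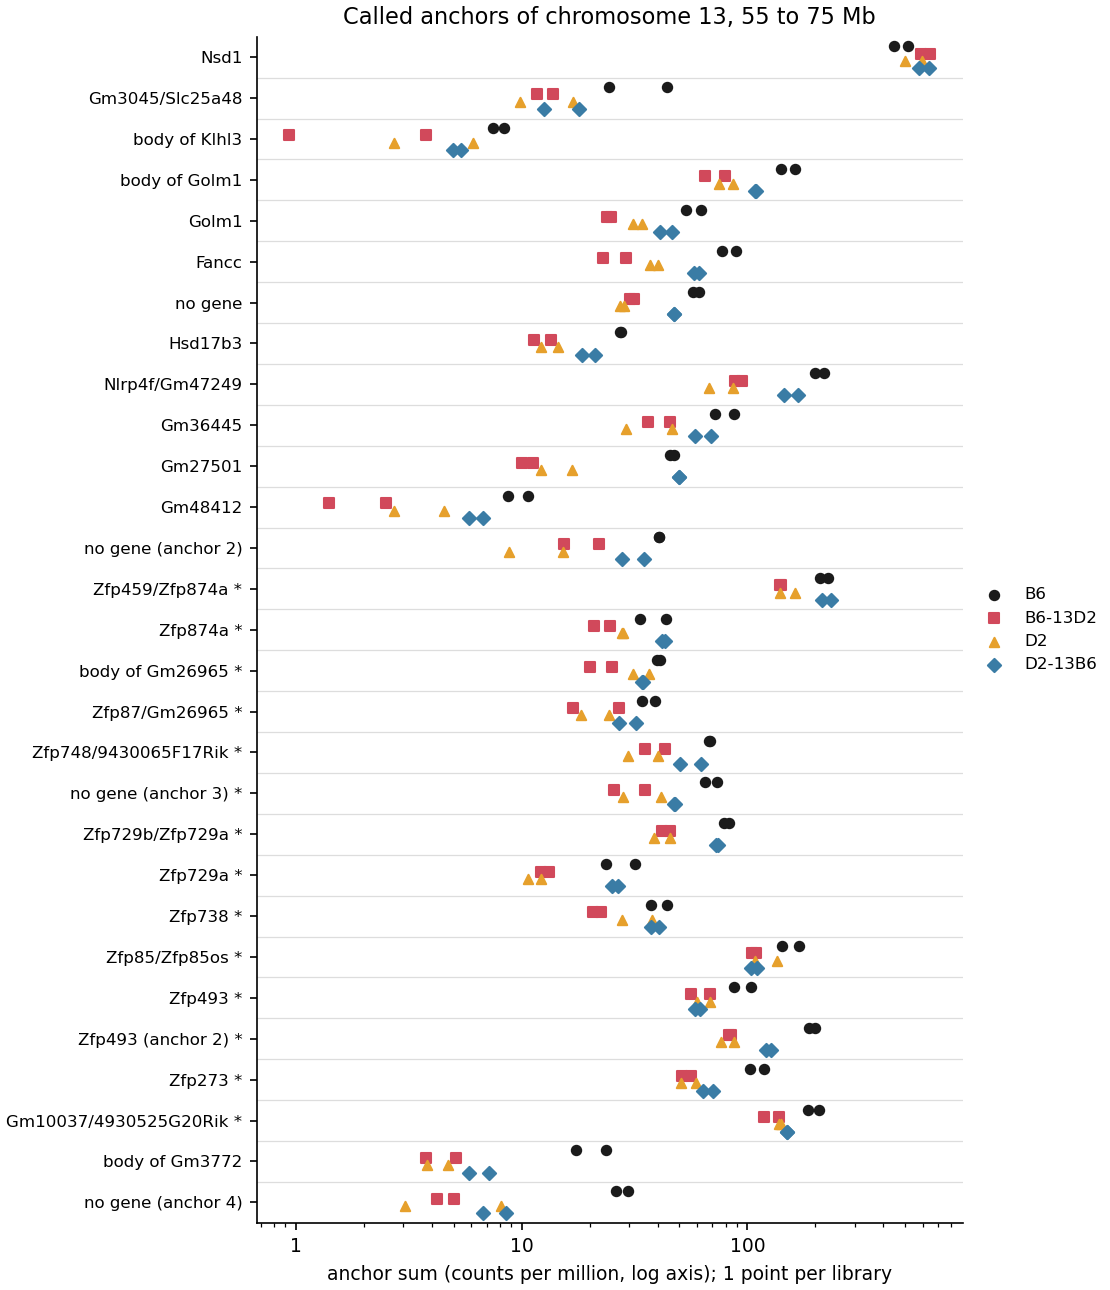
CPM of each library (log axis) at the 29 called anchors of chromosome 13 between 55 and 75 Mb, 1 point per library and an asterisk on anchors of the zinc finger block. Both B6 libraries lie above both B6-13D2 libraries at the 28 fallen anchors, and D2 lies with B6-13D2 at most of them.

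Read across the 4 lines, the fallen anchors of the stretch were mostly those in which D2 resembled B6-13D2. At 27 of the 28 both D2 libraries lay below both B6 libraries, and the same was so for D2-13B6 at 23. The shares of all tested anchors with these orders were not computed, and picking anchors that were high in B6 raises both counts. All 4 libraries with the D2 segment lay on one side of the 4 with the B6 segment at 20 of the 28 (71.4%), against 13.3% of the tested anchors in the stretch. Both B6 libraries lay outside the other 6 at 23 of the 28 (82.1%, against 25.7% of those tested). Between D2 and D2-13B6, 11 of the 28 were called lower; over all tested anchors 5.73% were called in that contrast. Over all 210 tested anchors of the stretch, that contrast called 7 higher and 12 lower with a median of 0.16, and over the 371 loops 6 higher and 9 lower with a median of 0.05, so its median did not have the sign of the -0.26 and -0.31 between B6-13D2 and B6. On the rest of chromosome 13 its medians were 0.34 for anchors and 0.30 for loops. The difference between the contrasts was called at 6 of the 28, and at 4.83% of all tested anchors. The fallen anchors were picked by the B6 and B6-13D2 libraries, which form part of these patterns.

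D2 and B6-13D2 share the D2 segment and differ elsewhere, and the same test was run between them. It called 15 of 210 tested anchors there (7.14%), 98 of 706 on the rest of chromosome 13 (13.9%) and 2921 of 20295 on other chromosomes (14.4%), against 14.3% over all tested anchors. Of loops it called 2 of 371 (0.539%), 48 of 1082 (4.44%) and 1547 of 43253 (3.58%), against 3.57% over all. None of the 28 fallen anchors was called between these lines in edgeR's test, where 4 had an unadjusted p under 0.05; DESeq2 was not run on this contrast. This comparison shares the B6-13D2 libraries with that of B6-13D2 and B6, and a test of the difference between the zones was not run.

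By kind of loop within the stretch, 9 of 100 tested loops from a promoter anchor to a distal one fell (median -0.51), against 0.629% called, in either direction, among all tested loops of that kind. Of 155 loops between promoter anchors 3 fell and 1 rose (0.440% called among all of that kind), of 68 between distal anchors 3 fell (0.587%), and of 48 inside 1 anchor 7 fell and 3 rose, against 3.52% called among all inside loops. Loops that span 20 to 100 kb held 13 of the falls among 170 tested, against 0.810% called among all loops of that span, and those of 100 to 500 kb held 1 among 109, against 0.231%. Only 9 tested loops had 1 end in the stretch and the other elsewhere on chromosome 13; none was called in edgeR's test (1 at an unadjusted p under 0.05, none by DESeq2), and their median was -0.13.

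On the rest of chromosome 13 the rises centred on the histone gene cluster. Of 54 histone genes there, 52 lay at tested anchors, which were 10 anchors; 9 rose, none fell (none at an unadjusted p under 0.05 in edgeR's test and none by DESeq2), and the median log2 fold change was 1.10. Of all tested anchors 3.5% rose, and 4.53% of those on the rest of chromosome 13. In each of the alternative scalings 9 rose, and by DESeq2 8. The anchor at chr13:23735001-23770000, which holds Hist1h1c and core histone genes, measured 59.1 and 96.8 CPM in B6, 226 and 215 in B6-13D2, 193 and 212 in D2, and 229 and 339 in D2-13B6. Only B6 was low: the other 3 lines, D2-13B6 included, lay above it without overlap (log2 fold change 1.52 ± 0.15 (SE), FDR 2.83e-12).

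The anchor of Hist1h4k and neighbours at chr13:21745001-21770000 measured 59.1 and 73.9 CPM in B6, 146 and 142 in B6-13D2, 153 and 197 in D2, and 179 and 223 in D2-13B6, again with B6 lowest (log2 fold change 1.12 ± 0.15 (SE), FDR 9.49e-08). Longer loops in the cluster rose as well: one from chr13:22020001 to the Hist1h1c anchor, spanning more than a megabase, had 1 and 2 counts in B6, 14 and 11 in B6-13D2, 12 and 12 in D2, and 11 and 20 in D2-13B6 (log2 fold change 2.55 ± 0.70 (SE), FDR 0.0382). The loop from the ribosome biogenesis gene Abt1 to the Hist1h1c anchor had 2 and 3 counts in B6, 21 and 15 in B6-13D2, 16 and 11 in D2, and 14 and 25 in D2-13B6 (log2 fold change 2.37 ± 0.57 (SE), FDR 0.0101). The first rests on 3 counts over both B6 libraries, and its ratio of B6-13D2 to B6 was 6.16, with an exact 95% interval of 1.88 to 31.9 that covers counting error only.

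Histone genes of other chromosomes lay at 7 tested anchors, of which 3 rose and none fell (none at an unadjusted p under 0.05 in edgeR's test), with a median of 0.44, against 3.5% of all tested anchors higher; 2 rose under library totals and by DESeq2, and 1 with the trend removed. These 3 were a pair of anchors of the chromosome 3 cluster and that of Hist4h4 on chromosome 6. B6 replicate 1 had the lower of the 2 B6 values at Hist1h1c and at Hist1h4k.

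Neighbours of the histone cluster differed in which line stood apart. Abt1 at chr13:23420001 measured 255.2 and 234 CPM in B6, 407 and 383 in B6-13D2, 285 and 279.5 in D2, and 278 and 310.3 in D2-13B6 (log2 fold change 0.69 ± 0.11 (SE), FDR 1.34e-05). Here B6-13D2 lay above and B6 below all other libraries. Btn2a2, a butyrophilin gene, at chr13:23485001 measured 286 and 315 CPM in B6, 474 and 451 in B6-13D2, 86.1 and 97.2 in D2, and 90.8 and 105 in D2-13B6 (log2 fold change 0.62 ± 0.11 (SE), FDR 5.08e-05), and both lines of mostly D2 genome were far lower than both lines of mostly B6 genome. Zfp184 at chr13:21895001 measured 289 and 289.6 CPM in B6, 431 and 407 in B6-13D2, 459.6 and 509 in D2, and 393 and 439.7 in D2-13B6 (log2 fold change 0.53 ± 0.11 (SE), FDR 0.00084), with B6 alone low.

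Farther along, the anchor of Ipo11, an importin gene, and Dimt1, an rRNA methyltransferase gene, at chr13:106900001-106950000 measured 357 and 403 CPM in B6, 590.1 and 571 in B6-13D2, 365 and 438 in D2, and 379 and 377 in D2-13B6 (log2 fold change 0.61 ± 0.11 (SE), FDR 6.07e-05). B6-13D2 alone was high, and the contrast differed from that of the D2-background lines by 0.53 (FDR 0.0285). Of the 7 anchors that fell, that in the body of Atxn1 at chr13:45920001-45930000 measured 23.0 and 21.3 CPM in B6, 8.81 and 11.2 in B6-13D2, 23.0 and 24.3 in D2, and 17.1 and 15.3 in D2-13B6 (log2 fold change -1.12 ± 0.30 (SE), FDR 0.0109), with B6-13D2 alone low. Its call was lost without B6 replicate 1 or without B6-13D2 replicate 1. The call at chr13:15015001-15030000, with 8.72 and 6.86 CPM in B6 and 1.26 and 0.935 in B6-13D2 (log2 fold change -2.79 ± 0.69 (SE), FDR 0.00568), was lost without B6 replicate 1, without B6-13D2 replicate 2 or with inside loops left out.

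On the other chromosomes, calls were scattered: 12 of the 1938 1-Mb windows that held a tested anchor had 5 or more calls in 1 direction. The window at 47 Mb of chromosome 6 had 9 risen anchors of 22 tested. Those at 119 Mb of chromosome 2, 116 Mb of chromosome 4 and 72 Mb of chromosome 9 had 8 each, of 33, 25 and 22 tested. Over all tested anchors 3.5% rose and 1.77% fell, and these windows were picked for their calls. The window at 37 Mb of chromosome 19 had 8 fallen anchors of 23 tested, with a median of -1.27 for the fallen. In that window both B6 libraries lay outside the other 6 at all 8 (14.5% of tested anchors outside chromosome 13). Ide, which encodes the insulin-degrading enzyme, lies there at chr19:37320001-37330000 and measured 212 and 204 CPM in B6, 86.2 and 83.2 in B6-13D2, 78.6 and 60 in D2, and 72.4 and 65.8 in D2-13B6 (log2 fold change -1.30 ± 0.13 (SE), FDR 3.02e-12). Between D2-13B6 and D2 the log2 fold change at Ide was 0.01 (FDR 0.984). The loop from the anchor of Fgfbp3 and Btaf1 to that of Kif11, a mitotic kinesin gene, had 59 and 44 counts in B6, 0 and 0 in B6-13D2, 1 and 0 in D2, and 2 and 1 in D2-13B6, at least 46.5-fold lower in B6-13D2 with the same floor of 3 counts over both libraries.

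The firmest fall of all tested anchors was that of Obox6, an oocyte and early embryo homeobox gene, and Crx at chr7:15830001-15870000. The region measured 138 and 131 CPM in B6, 31.5 and 30.4 in B6-13D2, 79.3 and 81.3 in D2, and 169.9 and 167 in D2-13B6. B6-13D2 was lowest, D2 intermediate, and both lines with the B6 segment highest (log2 fold change -2.13 ± 0.16 (SE), FDR 2.83e-18). The contrast between D2 and D2-13B6 had the same direction and a smaller size, at -1.07 (FDR 1.05e-08). No other Obox gene lay at a tested anchor of its own.

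Other falls took either form. In the body of Boll, a germ cell RNA-binding protein gene, the anchor at chr1:55350001 measured 25.5 and 36.6 CPM in B6, 9.44 and 7.94 in B6-13D2, 10.2 and 12.9 in D2, and 42.3 and 39.2 in D2-13B6 (log2 fold change -1.82 ± 0.29 (SE), FDR 5.49e-06), splitting by the segment with an equal change of -1.82 (FDR 1.73e-07) in the reciprocal lines. The anchor at chr14:120845001-120870000 measured 158 and 150.2 CPM in B6, 87.4 and 67.3 in B6-13D2, 95.6 and 99.5 in D2, and 135 and 141 in D2-13B6 (log2 fold change -1.01 ± 0.14 (SE), FDR 1.55e-07). It split by the segment too, with B6 highest and B6-13D2 lowest, and the change in the reciprocal lines was smaller, at -0.50 (FDR 0.0128). At Cdc34b, chr11:94745001, B6 alone was high with 80.3 and 71.6 CPM in B6, 27.7 and 37.4 in B6-13D2, 26.4 and 35.7 in D2, and 33.7 and 42.4 in D2-13B6 (log2 fold change -1.20 ± 0.18 (SE), FDR 2.03e-06).

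Among rises, the anchor of Utrn, the gene of the dystrophin relative utrophin, at chr10:12540001-12560000 measured 46.7 and 59.5 CPM in B6, 121 and 113 in B6-13D2, 75.9 and 92.7 in D2, and 92.2 and 66.7 in D2-13B6 (log2 fold change 1.15 ± 0.16 (SE), FDR 2.63e-07). B6-13D2 lay above and B6 below all other libraries. The anchor in the body of Dnah12, an axonemal dynein gene, at chr14:26855001-26870000 measured 66.0 and 73.9 CPM in B6, 154 and 145 in B6-13D2, 80.7 and 82.0 in D2, and 54.4 and 56.8 in D2-13B6 (log2 fold change 1.10 ± 0.14 (SE), FDR 2.01e-08), so B6-13D2 stood far above the rest and D2 only just above both lines with the B6 segment. D2 differed from B6-13D2 there by -0.88 (FDR 7.05e-07). At Txlnb, chr10:17790001-17810000, B6 alone was low with 43.0 and 48.0 CPM in B6, 106 and 93.5 in B6-13D2, 117 and 138 in D2, and 115 and 97.0 in D2-13B6 (log2 fold change 1.13 ± 0.17 (SE), FDR 1.14e-06). Rngtt, the gene of the mRNA capping enzyme, at chr4:33325001-33345000 measured 140.1 and 159 CPM in B6, 262 and 257 in B6-13D2, 209 and 235 in D2, and 248 and 235 in D2-13B6 (log2 fold change 0.80 ± 0.12 (SE), FDR 2.73e-06), B6 being lowest and B6-13D2 highest without overlap.

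**Figure D4:**
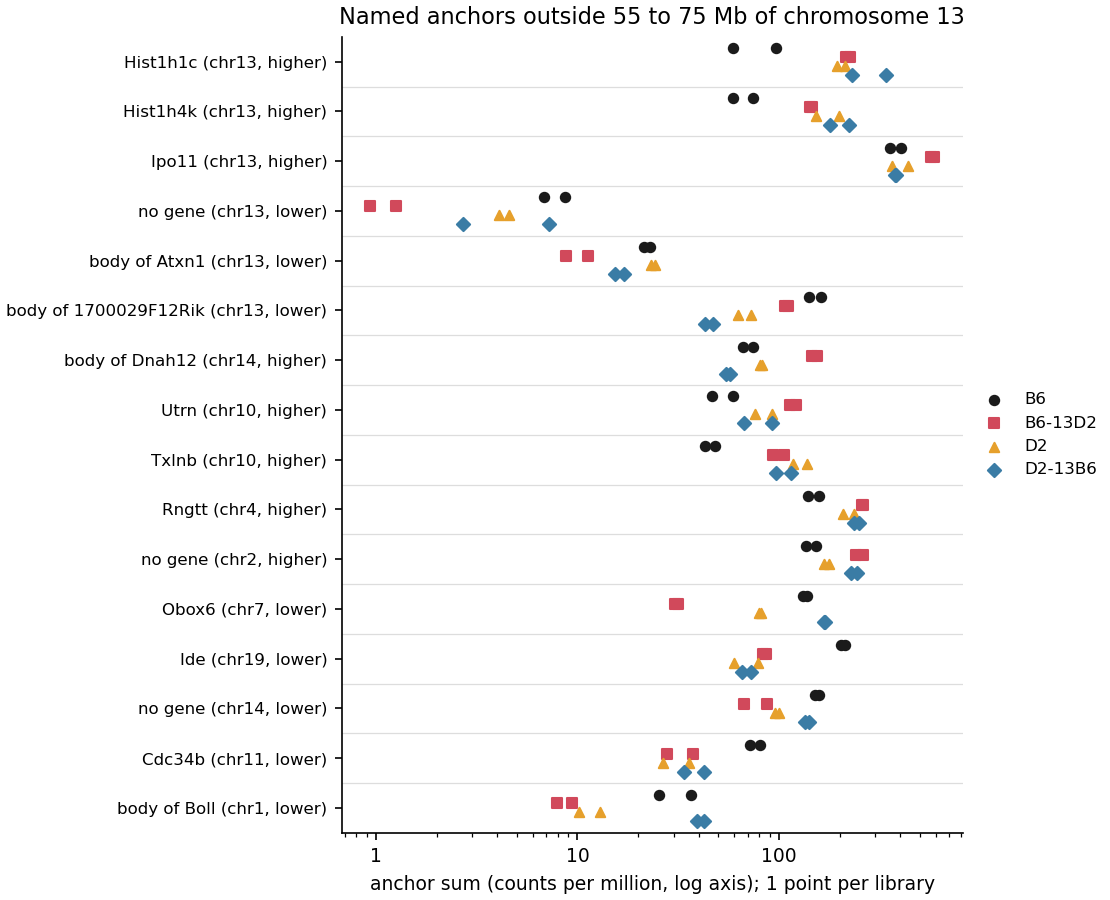
CPM of each library (log axis) at the 16 named anchors outside the 55 to 75 Mb stretch, 1 point per library. Lines differ in which one stands apart: B6 at Ide and Txlnb, B6-13D2 at Ipo11, Atxn1 and Dnah12, and the segment at Boll.

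Outside chromosome 13 the called anchors divided among several patterns over the 4 lines. All 4 libraries with the D2 segment lay on one side of the other 4 at 96 of the 710 that rose (13.5%) and at 97 of the 340 that fell (28.5%), with 4.65% of the tested anchors there. Both B6-13D2 libraries lay outside the other 6 at 409 of the 710 (57.6%) and both B6 libraries at 309 (43.5%). For the 340 the counts were 166 (48.8%) and 188 (55.3%). Of the tested anchors there, 17.2% and 14.5% had these patterns. The called anchors were picked by the B6 and B6-13D2 libraries, which form part of these patterns. Of the 32 risen anchors on the rest of chromosome 13, 4 split by the segment (12.5%), against 39 of the 706 tested there (5.52%). Among the 710, 28 were called higher and 64 called lower from D2-13B6 to D2, and among the 340, 50 were called lower and 4 higher; of all 20295 tested anchors there 254 were called higher and 892 lower in that contrast. The difference between zones in these shares was not tested.

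**Figure D5:**
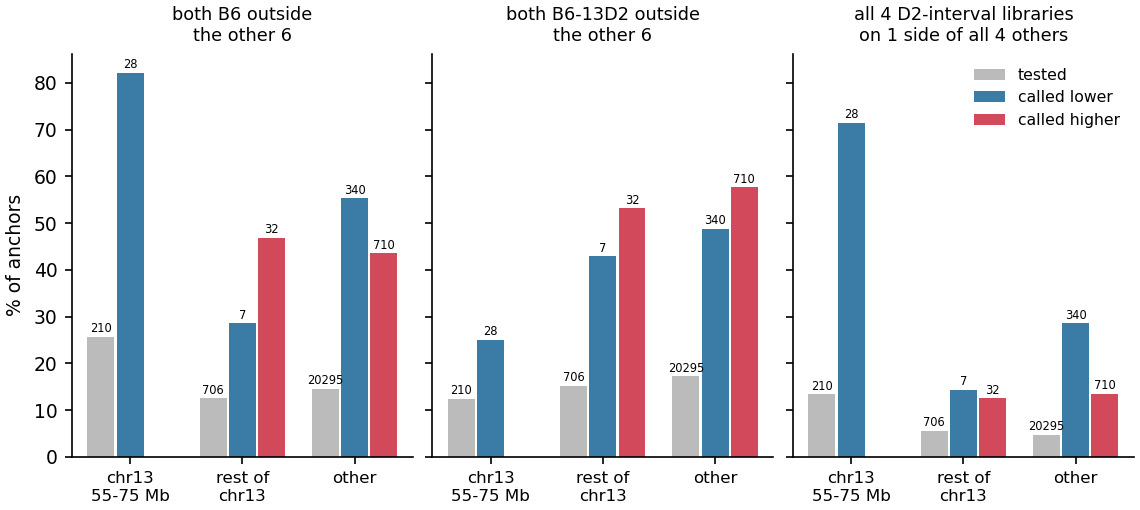
Percent of anchors in which both B6 libraries, both B6-13D2 libraries, or all 4 libraries with the D2 segment lie apart from the remaining libraries, for tested, called lower and called higher anchors of each zone; numbers above the bars are anchors. The split by segment holds for 71.4% of the fallen anchors between 55 and 75 Mb and for 13.5% and 28.5% of those that rose and fell on other chromosomes.

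For the pluripotency and lineage lists the share of all tested anchors called, 5.27%, leaves few calls to expect from lists this short. None of the 15 tested anchors of naive markers was called by edgeR (3 at an unadjusted p under 0.05, none by DESeq2), with a median log2 fold change of 0.12; with a factor per chromosome 1 rose, and with the trend removed 1 fell and the median was 0.00. None was called among the tested genes of the formative (3 of 8), 2-cell (1 of 11), primitive endoderm (3 of 9), trophoblast (1 of 8), fibroblast (3 of 9) and neural (1 of 5) markers, where 1 anchor had an unadjusted p under 0.05 in edgeR's test and DESeq2 called none. Most of these lineage markers had no tested anchor. Of 24 tested genes of pluripotency signalling 2 were called, against that 5.27%: Lifr, the LIF receptor gene, rose (log2 fold change 0.59, FDR 0.00298) and Lif fell. At Lif the anchor measured 62.9 and 54.9 CPM in B6, 35.9 and 36.0 in B6-13D2, 33.9 and 34.9 in D2, and 82.7 and 89.3 in D2-13B6 (log2 fold change -0.72 ± 0.18 (SE), FDR 0.00791), so both lines with the B6 segment were above both with the D2 segment. Lif lies on chromosome 11, whose share of counts was raised in D2-13B6, and the part of that in this split was not tested.

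Genes of heterochromatin formation, the machinery that KRAB zinc finger proteins recruit, had 30 of 32 members at tested anchors; 2 rose, 1 fell and the median was 0.13, or -0.04 with the trend removed. With the trend removed 1 rose and 1 fell, and DESeq2 called 2 higher and none lower. Atf7ip, a partner of the methyltransferase Setdb1, measured 531 and 546 CPM in B6 and 791 and 681 in B6-13D2 (log2 fold change 0.45 ± 0.11 (SE), FDR 0.00372). Cbx5, the gene of HP1 alpha, measured 461 and 452 CPM in B6 and 625 and 652 in B6-13D2 (log2 fold change 0.48 ± 0.11 (SE), FDR 0.00139). Dnmt3l, a cofactor of DNA methylation, measured 51.7 and 58.7 CPM in B6 and 32.7 and 34.6 in B6-13D2 (log2 fold change -0.70 ± 0.19 (SE), FDR 0.0135). Trim28 itself did not pass the test (log2 fold change 0.11, FDR 0.66). The share called, 3 of 30, stands against 5.27% of all tested anchors.

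Of the other families, 1 of 6 tested Nlrp anchors fell, that of Nlrp4f. Germline genes had 4 of 21 members at tested anchors, and none was called (1 at an unadjusted p under 0.05 in edgeR's test, none by DESeq2). Olfactory receptor genes lay at 53 tested anchors, 3 higher and 3 lower, and cytochrome P450 genes at 22, 2 of them lower and none higher (none at an unadjusted p under 0.05 in edgeR's test, none by DESeq2). Over all tested anchors 3.5% were higher and 1.77% lower, and these family counts are too small to be read against that. Among zinc finger genes elsewhere, Zkscan17 fell with 101 and 89.2 CPM in B6, 46.6 and 57.5 in B6-13D2, 59.6 and 66.8 in D2, and 119 and 120.4 in D2-13B6 (log2 fold change -0.86 ± 0.16 (SE), FDR 0.000119), again split by the segment and again on chromosome 11, and Zbtb26 rose (log2 fold change 0.83 ± 0.14 (SE), FDR 1.67e-05).

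Outside chromosome 13, the risen and fallen anchors had different medians of base composition and width. The 710 that rose had a median GC content of 42.5%, a median width of 15 kb and a median level of 100 CPM, and 55.6% held the start of a coding gene. The 340 that fell had 46.0%, 10 kb, 26.5 CPM and 36.2%, and anchors not called 45.2%, 10 kb, 19.4 CPM and 44.1%. In the stretch, the 28 fallen anchors had a median GC content of 41.9% and 40.4 CPM, and 15 of them (53.6%) held a coding start. All 210 tested there had 43.5% and 17.7 CPM, and 49.5% held a coding start. These medians are descriptions, and an anchor with more counts can pass the test at a smaller change. Anchors of chromosome X had a median log2 fold change of 0.28 over 471 tested, with 36 risen and 3 fallen. That is 8.28% called, against 5.27% of all tested anchors, of which 3.5% rose and 1.77% fell. With a factor per chromosome the median on X was 0.03, and 10 rose and 7 fell.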

How the data were processed

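The deposited table gives raw loop counts, whole numbers of read pairs per pair of anchors in 8 libraries, made by the authors from H3K27ac Dovetail MNase HiChIP (150 bp paired ends). The submitters' processing notes name BWA 0.7.18, SAMtools 1.19.2, edgeR 3.34.1 and mm10, with no role or order; the loop caller and the placement of multi-mapping reads are not given in the sources used here. The members and gene lists were chosen with earlier results of these data known.

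Loops needed 5 counts, and anchors (the sum over their loops, inside loops once) 10 counts, in at least 2 libraries. edgeR 4.0.16 (R 4.3.3) fitted 1 mean per line over all 8 libraries with trimmed-mean scaling and the quasi-likelihood test, Benjamini-Hochberg adjusted over all loops or anchors at 0.05; SE is the fold change over the root of F. The second contrast was D2 minus D2-13B6, and the interaction is the first minus the second. Genes are GENCODE M21 starts in an anchor or within 5 kb, otherwise the body. Coordinates are 1-based. DESeq2 1.42.0 and other scalings, filters and left-out libraries were alternatives. The fit was tested on simulated counts. It recovered 10% of loops and 56% of anchors changed 2-fold, and 43% and 92% of those changed 4-fold. There was 1 false call among loops and 4 among anchors. A loop that was not called may therefore still differ. With 2 libraries per line, replicate spread is known only roughly, and a single count has Poisson error.

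Named loops and anchors were called ones without overlap of the B6 and B6-13D2 libraries: by smallest FDR, the first 5 in each direction between 55 and 75 Mb at least 250 kb apart, 3 on the rest of chromosome 13 and 5 elsewhere at least 1 Mb apart. Called members of the lists, of the zinc finger block and their neighbours, chosen after their values were seen, are named too. Figures were drawn with matplotlib 3.10.9.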

Additional observations from a re-analysis of the deposited data

Results flagged for a closer look

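At 15 of 22 named anchors and 9 of 21 named loops the change from B6 to B6-13D2 differed from that from D2-13B6 to D2, by the interaction test at an FDR of 0.05. Over all tested features it was called at 4.83% of anchors and at 271 of 44706 loops. The named members were picked by the first of these contrasts, which is part of the difference. Values here are that difference on the log2 scale, the first contrast minus the second. The D2-13B6 line, with its raised chromosome 11 share, enters each of them, and whether it accounts for any was not tested. In the 55 to 75 Mb stretch the difference was 0.52 at the Nsd1 anchor and 0.86 in its inside loop, -1.07 at Fancc and -0.62 at Zfp493, so Fancc and Zfp493 fell more on the B6 background. Along the histone cluster it was 2.01 at the Hist1h1c anchor, 1.33 at Hist1h4k, 1.85 in the loop inside the Hist1h4h anchor and 1.85 in the loop from Hist1h2bl. On the rest of chromosome 13 it was 0.53 at Ipo11, -1.67 at Atxn1 and -1.07 at 1700029F12Rik.

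Elsewhere the Utrn anchor differed by 1.07 and its loop by 1.59, and the Txlnb anchor by 0.86 and its loop by 1.15. Rngtt differed by 0.92, the chromosome 2 anchor at 119870001 by 1.24 and its loop by 1.40, the Eps8 loop by 1.31, and the loop inside the chromosome 15 anchor at 77335001 by 1.03. Among falls, the Obox6 anchor differed by -1.06 and its inside loop by -1.81, Ide by -1.31, and Cdc34b on chromosome 11 by -0.90.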

How the results depend on the processing

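The counts of calls depended on tool, filter and libraries. From 384 loops, DESeq2 called 139, no filter on low counts 204, and the 4 libraries of B6 and B6-13D2 alone 248; leaving out 1 library at a time gave 113 to 353. From 26 loops between 55 and 75 Mb, DESeq2 called 4 and no filter 13, with 14 to 26 when 1 library was left out. From 1118 anchors, DESeq2 called 408 and the 4 libraries alone 631, with 595 to 1028 when 1 was left out. From 29 anchors in the stretch, DESeq2 called 15, with 22 to 30 when 1 was left out. DESeq2 gave no adjusted p to 42470 loops and 14393 anchors; of the 384 loops it left 204 and of the 26 it left 22 without one, and of the 1118 anchors 346. Its fold changes had the sign of edgeR's at all 384 loops and 1118 anchors. The cause of the other changes was not tested.

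Named results kept their direction in every alternative run, and 18 of 22 named anchors and 16 of 21 named loops their call wherever an adjusted p was given. Beside the losses given in the report, the call at 1700029F12Rik was lost without B6 replicate 1 or B6-13D2 replicate 2, by DESeq2 and with the 4 libraries alone. The Hist1h2bl loop was lost without B6 replicate 1, the Ipo11 loop without B6 replicate 1 and with the trend removed, and the Tmtc1 loop without B6-13D2 replicate 2.

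Replicate numbers did not pair the samples: deviations of same-numbered B6 and B6-13D2 libraries correlated at -0.05 over loops and -0.15 over anchors. With the replicate block edgeR called 271 loops, 841 anchors, 21 loops and 27 anchors in the stretch; with the numbers crossed, chosen after seeing the data, 405, 1404, 25 and 32.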
